A study of Mus musculus with 6 samples.

Results

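The class III receptor tyrosine kinases and their ligands were examined in mouse bone marrow cells 72 hours after retroviral transduction with MN1 or with an empty vector. The set held 9 genes of the 19938 tested: the receptor genes Flt3, Kit, Csf1r, Pdgfra and Pdgfrb, and the ligand genes Flt3l, Kitl, Csf1 and Il34. They were chosen by name, as the members of this receptor class and the ligands listed with them, and each was read by 1 probe set that carries only that gene's symbol. The MN1 group held 3 arrays of cells given an MSCV retroviral vector that carries MN1, a transcriptional coregulator often highly expressed in myeloid leukaemia, ahead of an internal ribosome entry site and a fluorescent reporter. The empty vector group held 3 arrays of cells given the same kind of vector with the reporter alone. All cells were sorted for the reporter (GFP by the labels, YFP by the series' design text), so neither group is a sample of untransduced marrow. How many untransduced cells remained after sorting was not tested. Per the design text, 3 independent experiments were done. No label gives the species or extent of the MN1 cDNA, the strain or age of the mice, or the culture conditions.

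Class III receptors share an extracellular part of immunoglobulin-like domains and a cytoplasmic kinase domain split by an insert. A dimeric ligand brings a pair of receptor chains together, the chains phosphorylate each other, and adaptors and kinases that dock there start Ras, PI3-kinase and STAT signalling. In marrow, FLT3 is known for multipotent and lymphoid progenitors and dendritic cell development, KIT for stem cells, progenitors and mast cells, and CSF1R for monocytes and macrophages. The PDGF receptors are known mainly from mesenchymal and stromal cells. FLT3 ligand, KIT ligand (stem cell factor), CSF1 and IL-34 are the ligands of FLT3, KIT and, for the last pair, CSF1R.

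All values are RMA expression values on the log2 scale. On 1 array a level of 1 unit more is a signal 2-fold brighter. Levels of different genes come from different probes, so they are set against each other below only to say how bright or dim a probe set is. Array medians ran from 5.82 to 6.01. Mn1, the transduced gene, measured 6.39 ± 0.28 in MN1 cells and 5.18 ± 0.33 in empty vector cells (SD, n = 3 each), with an adjusted p of 0.584 (limma). How much of the vector's own transcript this probe set reads was not tested. The 7 genes of general blood cell identity, such as Laptm5 and Lcp1, were bright on every array: their summed signal (log2 of the sum of the unlogged values) was 14.67 to 14.82 with MN1 and 14.79 to 14.90 with the empty vector. The arrays differed in the Y-linked gene Eif2s3y, at 7.04 to 8.57 with MN1 and 3.43 to 8.24 with the empty vector, while Xist was at 8.70 or more on every array. In both groups replicate 2 was the lowest in Eif2s3y and replicate 3 the highest, and Xist ran in the reverse order. Empty vector replicate 2 was the lowest of all arrays in Eif2s3y. The part of this difference between arrays in the values below was not tested. In bulk samples such as these, fewer cells of a type and less RNA per cell cannot be told apart.

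No gene passed the test of MN1 against the empty vector across all 19938 genes (limma, Benjamini-Hochberg adjusted p under 0.05, 0% called), and 0 of the 9 receptor and ligand genes did; at an unadjusted p under 0.05 there were 1675 genes, or 8.4%. The differences below are therefore measured differences and not calls. Flt3 stood out in size. It was 3.56-fold higher with MN1, and was the only member of the set at least 2-fold higher, as were 0.993% of all genes, while 0 members were at least 2-fold lower, against 0.381% of all genes. For 2 of the 9, Flt3 and Csf1r, the MN1 arrays all lay above the empty vector arrays, against 5.71% of all genes, and for 0 they all lay below, against 10.3%. The same 2 genes had an unadjusted p under 0.05, which for Csf1r did not hold in all alternative fits, as given below. Of the 9 genes, 4 had a higher and 5 a lower mean with MN1, beside 8628 higher and 11310 lower over all genes. The median log2 difference of the 9 was -0.04, beside -0.03 over all genes. The smallest adjusted p among the 9 was 0.584.

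**Figure D1:**
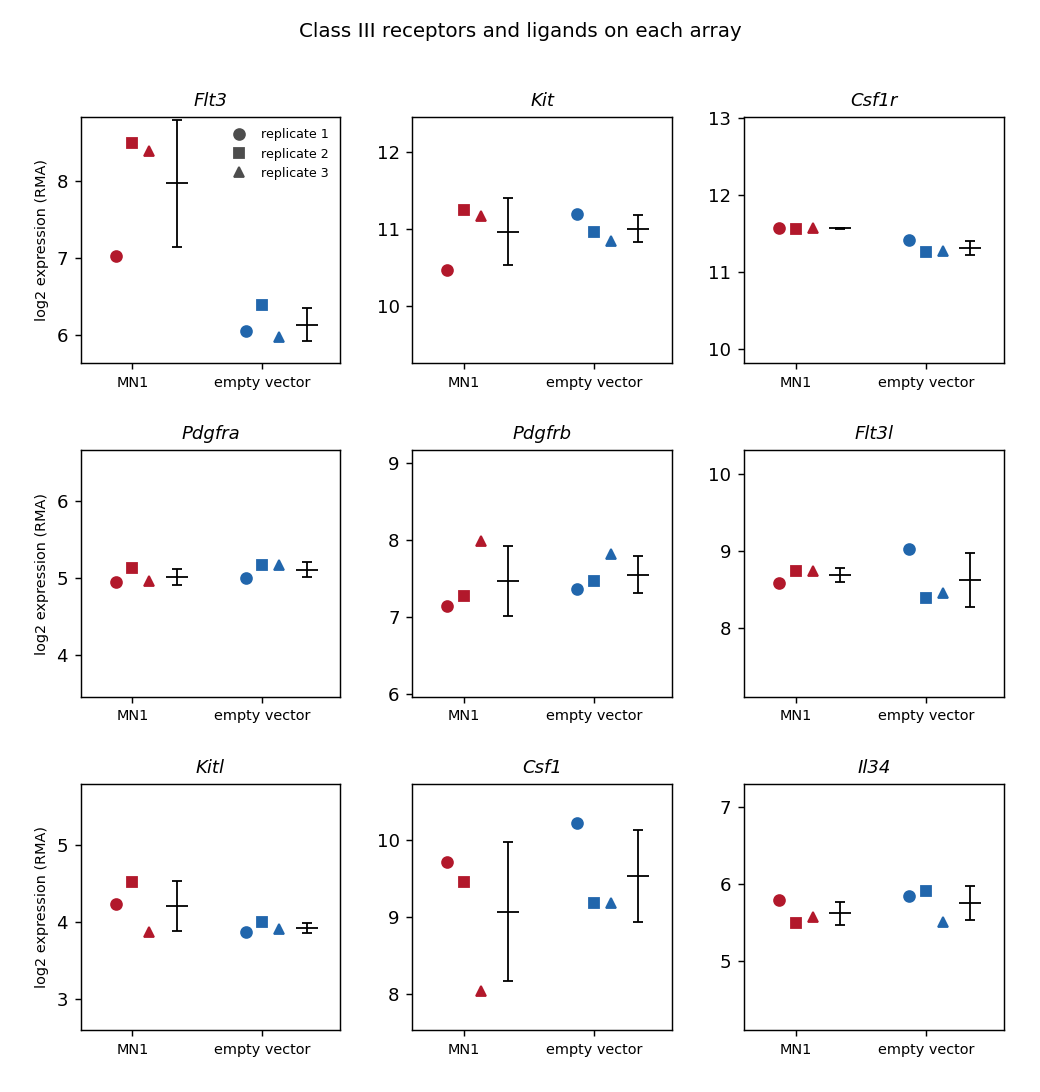
Log2 expression (RMA) of the 5 receptor genes and 4 ligand genes on each array, with MN1 in red on the left and empty vector in blue on the right of each panel; symbols give the replicate, and the bars are mean ± SD (n = 3). Every panel spans the same number of log2 units, so differences can be compared between panels; Flt3 has the widest gap between groups, and Csf1 scatters most within them.

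Flt3 encodes the receptor of FLT3 ligand and is often mutated in acute myeloid leukaemia. It measured 7.02, 8.49 and 8.39 in MN1 cells of replicates 1 to 3, and 6.05, 6.38 and 5.97 in empty vector cells of replicates 1 to 3. The groups did not overlap, and MN1 replicate 1 lay between the other 2 MN1 arrays and the empty vector arrays. Flt3 averaged 7.96 ± 0.82 in MN1 cells and 6.13 ± 0.22 in empty vector cells (SD, n = 3 each). The log2 difference was 1.83 ± 0.39 (SE), with a 95% interval of 0.88 to 2.78 and an adjusted p of 0.584 (limma, Benjamini-Hochberg). By size it ranked 22 among all 19938 genes, and by unadjusted p it ranked 79. An exact two-sided permutation test over the 6 arrays gave p = 0.1, the smallest that 3 arrays against 3 allow. The spread among MN1 arrays was larger than among the empty vector arrays: the Flt3 range was 1.47 with MN1 and 0.41 with the empty vector. Without MN1 replicate 1 the log2 difference was 2.31 ± 0.16 (SE), with an adjusted p of 0.0989, the smallest reached when any array was left out. Without empty vector replicate 2, the array lowest in the Y-linked gene, it was 1.96 ± 0.47.

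Kit, the receptor for stem cell factor, which early progenitors also use, measured 10.46, 11.24 and 11.17 in MN1 cells, and 11.19, 10.96 and 10.85 in empty vector cells. The groups overlapped, and both the highest and the lowest array were MN1 arrays. The log2 difference was -0.04 ± 0.23 (SE), with a 95% interval of -0.59 to 0.51 that leaves room for a change of up to that size either way (adjusted p = 0.956, limma). MN1 replicate 1, the lowest MN1 array in Flt3, was also the lowest in Kit. Without it the Kit difference was 0.21 ± 0.14, with an adjusted p of 0.747. The exact permutation p was 0.9.

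The stretches just upstream of the start sites of Flt3 and Kit are shown because both genes encode receptors of early progenitors and had the largest and the smallest absolute difference of the 9. RefSeq promoters were matched for 6 of the 9 genes (build GRCm38.p6). The 250 bases before the start site are printed 5′ to 3′ on the gene's own strand, in capitals where a searched motif matches: Flt3 from chr5:147400490-147400739 on the minus strand, and Kit from chr5:75574737-75574986 on the plus strand.
Flt3: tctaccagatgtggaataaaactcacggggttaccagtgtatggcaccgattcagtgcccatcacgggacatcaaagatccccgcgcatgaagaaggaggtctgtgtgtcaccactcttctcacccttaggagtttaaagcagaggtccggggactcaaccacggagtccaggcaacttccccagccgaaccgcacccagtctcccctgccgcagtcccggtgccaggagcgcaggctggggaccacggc
Kit: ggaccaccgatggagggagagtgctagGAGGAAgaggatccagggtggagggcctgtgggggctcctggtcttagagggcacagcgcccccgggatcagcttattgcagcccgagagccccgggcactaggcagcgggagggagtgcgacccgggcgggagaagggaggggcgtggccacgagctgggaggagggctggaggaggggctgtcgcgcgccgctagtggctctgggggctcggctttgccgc
The motifs searched on both strands were GAGGAA for PU.1 and other ETS factors, TGTGGT for RUNX factors, TGACAG for MEIS and other TALE factors, and TTATGTAA for PAR bZIP factors such as HLF. Flt3 held 0 matches to these. Kit held 1, to GAGGAA on the plus strand, beginning 223 bases before the start site, and none to the others. Of 27025 promoters cut to the same length, 23.1% held GAGGAA, 14.2% TGTGGT, 16% TGACAG and 0.862% TTATGTAA. Both stretches were rich in G and C, at 59.2% in Flt3 and 70.8% in Kit, with 13 and 17 CG dinucleotides. Fewer were found in 68.2% of all promoters than in Flt3 and in 76.4% than in Kit. A stretch without a match says only that these letters are not in this window.

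Csf1r, the receptor of CSF1 and IL-34 on monocytes and macrophages, measured 11.57, 11.56 and 11.57 in MN1 cells, and 11.42, 11.25 and 11.27 in empty vector cells. The groups did not overlap, and the MN1 arrays lay within a range of only 0.01. The log2 difference was small, at 0.25 ± 0.09 (SE), or 1.19-fold, with a 95% interval of 0.03 to 0.48 and an adjusted p of 0.584 (limma). The exact permutation p was 0.1, the smallest possible. Of 17 measured markers of monocytes and macrophages, 14 had a higher mean with MN1, and the median log2 difference of the 17 was 0.89. The 3 with a lower mean were Cd14, Ccr2 and Cx3cr1, at -0.36, -0.10 and -0.38. The summed signal of the 17 was 15.32 to 16.00 with MN1 and 14.66 to 15.09 with the empty vector, without overlap. The brightest were Lyz2, which encodes lysozyme, with a log2 difference of 0.12 ± 0.26, and the cathepsin gene Ctss with 0.81 ± 0.25 (SE). The part of these cells in the Csf1r value was not tested.

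**Figure D2:**
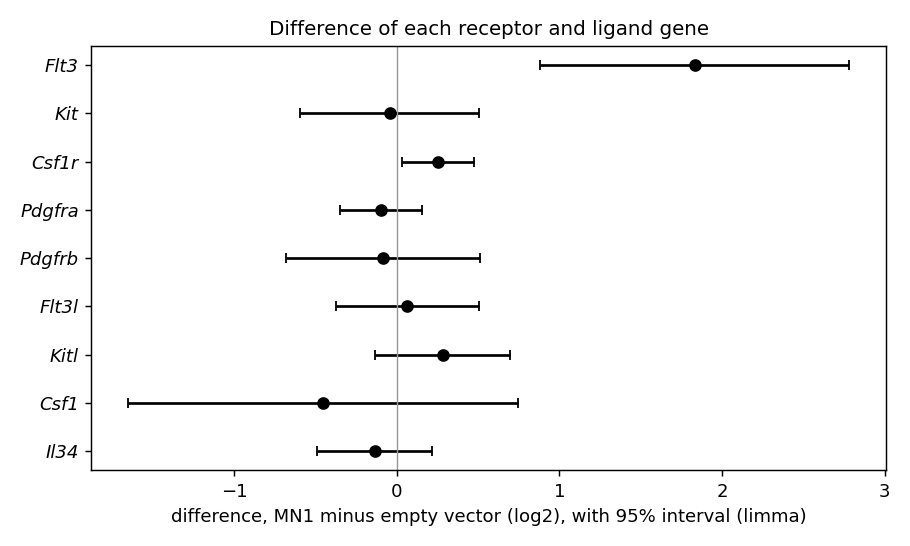
Log2 difference (MN1 minus empty vector) of each receptor and ligand gene with its 95% interval from limma; the grey line marks 0. The intervals of Flt3, from 0.88 to 2.78, and of Csf1r, from 0.03 to 0.48, lie above 0 before adjustment over all genes, and the other 7 include 0.

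The receptors of platelet-derived growth factors showed no difference beyond the spread of the arrays. Pdgfra, the alpha receptor, measured 4.95, 5.14 and 4.97 in MN1 cells, and 4.999, 5.18 and 5.17 in empty vector cells, a difference of -0.09 ± 0.10 (SE, log2, adjusted p = 0.764, limma). These values are dim. The 1194 olfactory and vomeronasal receptor genes, whose transcripts marrow is not known for, had a median level of 3.79 and a 95th percentile of 5.23, and Pdgfra lay below that percentile. Pdgfrb, the beta receptor, was brighter than 99.8% of those genes. It measured 7.14, 7.27 and 7.98 in MN1 cells, and 7.36, 7.46 and 7.82 in empty vector cells. The replicate 3 array was the highest of its group in both, so the groups overlapped fully, and the difference was -0.08 ± 0.25 (adjusted p = 0.916). Of 15 stromal and endothelial markers, 6 had a mean no higher than that percentile of the olfactory genes and the other 9 were above it. The brightest were the endothelial and leukocyte gene Pecam1, with a log2 difference of -0.25 ± 0.23, and the podoplanin gene Pdpn with 1.31 ± 0.75 (SE). The summed signal of the list was 11.12 to 11.77 with MN1 and 11.002 to 11.38 with the empty vector.

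Some class III receptor genes are neighbours in the mouse genome, and the measured differences of neighbours are set side by side here. Pdgfra, Kit and Kdr stand side by side on chromosome 5, with 0 protein-coding genes between neighbours in the RefSeq annotation. Kdr encodes the related VEGF receptor and measured 9.14, 7.12 and 6.31 in MN1 cells, and 6.08, 5.78 and 5.49 in empty vector cells. MN1 replicate 1 was by far the highest, and the groups did not overlap. The Kdr difference was 1.74 ± 0.68 (SE, log2, adjusted p = 0.584, limma), beside -0.04 for Kit and -0.09 for Pdgfra. Pdgfrb and Csf1r are neighbours too, with 0 protein-coding genes between them, and differed by -0.08 and 0.25. Flt3 and the related receptor kinase gene Flt1 lie near each other on chromosome 5, with 1 protein-coding gene between them. The Flt1 difference was -0.48 ± 0.37 (SE) with overlapping groups, beside 1.83 for Flt3. The differences between neighbours were not tested.

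The ligand genes overlapped between the groups. Flt3l measured 8.58, 8.74 and 8.74 in MN1 cells, and 9.02, 8.39 and 8.45 in empty vector cells, so that empty vector replicate 1 was the highest array and the other 2 empty vector arrays the lowest. The difference was 0.07 ± 0.18 (SE, log2), with a 95% interval of -0.37 to 0.51 (adjusted p = 0.912, limma). Csf1, the main growth factor of macrophages, varied most of the 9 genes within groups: its residual SD of 0.76 was larger than that of 97.5% of all genes. It measured 9.72, 9.46 and 8.05 in MN1 cells, and 10.22, 9.18 and 9.19 in empty vector cells. MN1 replicate 3 was low and empty vector replicate 1 was high, and the difference was -0.46 ± 0.50 (adjusted p = 0.761). It was 0.06 without MN1 replicate 3, -0.78 without MN1 replicate 1 and -0.11 without empty vector replicate 1.

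Kitl, the stem cell factor gene, which is known to be expressed by stromal and endothelial cells of the marrow, was dim. It measured 4.24, 4.53 and 3.87 in MN1 cells, and 3.88, 4.00 and 3.91 in empty vector cells. Only 67.6% of the olfactory genes had a lower mean, so its difference of 0.28 ± 0.17 (SE, log2, adjusted p = 0.625, limma) was measured at levels where those probe sets also lie. It was 0.13 without MN1 replicate 2 and 0.45 without MN1 replicate 3. Il34, the second ligand of CSF1R, measured 5.79, 5.49 and 5.58 in MN1 cells, and 5.85, 5.92 and 5.51 in empty vector cells. Its groups overlapped, with a difference of -0.14 ± 0.15 (adjusted p = 0.758), and 97.5% of olfactory genes were dimmer. The difference was -0.05 without empty vector replicate 2 and -0.26 without empty vector replicate 3.

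A few genes followed the arrays much as Flt3 did. Likeness was read as the root mean square distance, over the 6 arrays, between the values of each gene less its own mean. Nearest to Flt3 were Runx1t1, a corepressor gene known from a leukaemia translocation, at a distance of 0.29, then Hlf, a stem cell transcription factor, at 0.32. Mboat2, a lysophospholipid acyltransferase, followed at 0.35, and the adhesion receptor genes Adgrl4 and Adgrg6 at 0.36 each, where the SD of Flt3 itself over the arrays was 1.14. Runx1t1 measured 5.62, 7.22 and 7.10 in MN1 cells, and 5.26, 5.40 and 5.37 in empty vector cells. Hlf measured 7.16, 8.96 and 8.33 in MN1 cells, and 6.75, 6.94 and 6.85 in empty vector cells. As in Flt3, replicates 2 and 3 were the high MN1 arrays for all 5 of these genes. Since the genes were picked for this pattern, their differences between groups are no separate result.

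**Figure D3:**
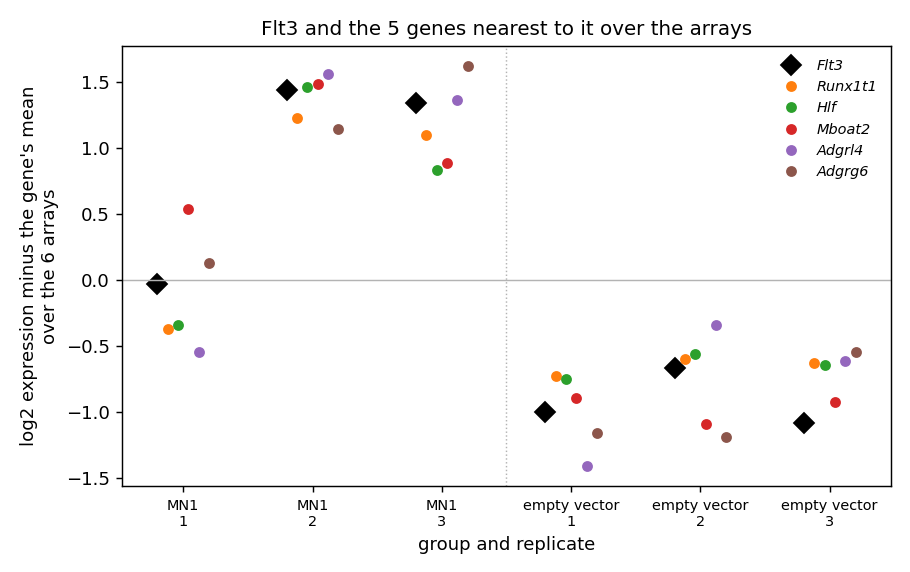
Log2 expression of Flt3 (black diamonds) and of the 5 genes nearest to it, each less its own mean over the 6 arrays, by group and replicate. MN1 replicates 2 and 3 lie highest for every gene shown, and MN1 replicate 1 lies between them and the empty vector arrays except for Adgrl4, where it is below empty vector replicate 2.

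The genes nearest to Kit and to Csf1r were picked by the same measure, so their patterns are no separate result either. Nearest to Kit were Mrps5 and Mtg2, of the mitochondrial ribosome and its assembly, at distances of 0.03 and 0.05. The general transcription factor gene Taf12, the phosphatase gene Ppp5c and the helicase gene Rtel1 followed, each at 0.05, where the SD of Kit was 0.30. Mrps5 measured 7.95, 8.74 and 8.68 in MN1 cells, and 8.72, 8.46 and 8.41 in empty vector cells, with MN1 replicate 1 the lowest array. Nearest to Csf1r were the histocompatibility gene H2-Bl, the lysosomal membrane protein gene Cln3, the actin adaptor gene Trip10, Abraxas2, of a deubiquitinase complex, and the TNF receptor family gene Tnfrsf4, at 0.03 to 0.04, where the SD of Csf1r was 0.15.

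Markers of the cells in which these receptors are known showed different patterns between arrays. Of 14 early progenitor markers, 12 had a higher mean in MN1 cells and 2 a lower one; the median log2 difference was 0.55. The brightest, Gata2 and the progenitor surface marker Cd34, differed by -0.04 ± 0.21 and 0.91 ± 0.19 (SE), with adjusted p values of 0.956 and 0.584 (limma). The summed signal of the list was 13.41 in MN1 replicate 1, the lowest MN1 array in Flt3, and 13.98 and 13.90 in MN1 replicates 2 and 3, against 13.17 to 13.50 in empty vector cells. Mast cell and basophil markers, without Kit itself, had 2 of 11 higher and 9 lower means, with a median of -0.61. Their summed signal was 13.92 in MN1 replicate 1, the lowest array in Kit, and 14.98 and 14.65 in the other MN1 arrays, against 14.77 to 15.17 in empty vector cells. Their brightest genes, the carboxypeptidase gene Cpa3 and the protease gene Mcpt8, differed by -0.31 ± 0.22 and -0.68 ± 0.49. Gata2 is in both the early progenitor list and the mast cell and basophil list, so these lists are not separate. Hlf, picked above for its likeness to Flt3, is in the early progenitor list. Of 15 neutrophil markers, 1 had a higher and 14 a lower mean, with a median of -1.30. Their summed signal was 13.56, 14.52 and 14.32 in MN1 replicates 1 to 3. It was 15.29, 16.12 and 13.79 in empty vector replicates 1 to 3, so empty vector replicate 3 lay below MN1 replicates 2 and 3. All 6 megakaryocyte markers had a higher mean, with a median of 1.07, and their summed signal was 12.9965 to 14.25 with MN1 and 11.53 to 12.9967 with the empty vector. For 11 lymphoid progenitor and B cell markers, 7 higher and 4 lower with a median of 0.50, it was 11.10 to 12.08 with MN1 and 9.65 to 11.51 with the empty vector. For 14 dendritic cell markers, 6 higher and 8 lower with a median of -0.16, it was 12.32 to 13.61 with MN1 and 12.52 to 13.39 with the empty vector. Of 9 erythroid markers 7 had a lower mean, with a median of -0.46, and of 12 T and natural killer cell markers 8 had a lower mean, with a median of -0.28. Of those 12, 7 had a mean no higher than the 95th percentile of the olfactory genes. So did 4 dendritic cell, 3 lymphoid progenitor and B cell and 1 of the erythroid markers. The part of the cell types of these lists in the Flt3 and Kit values was not tested.

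**Figure D4:**
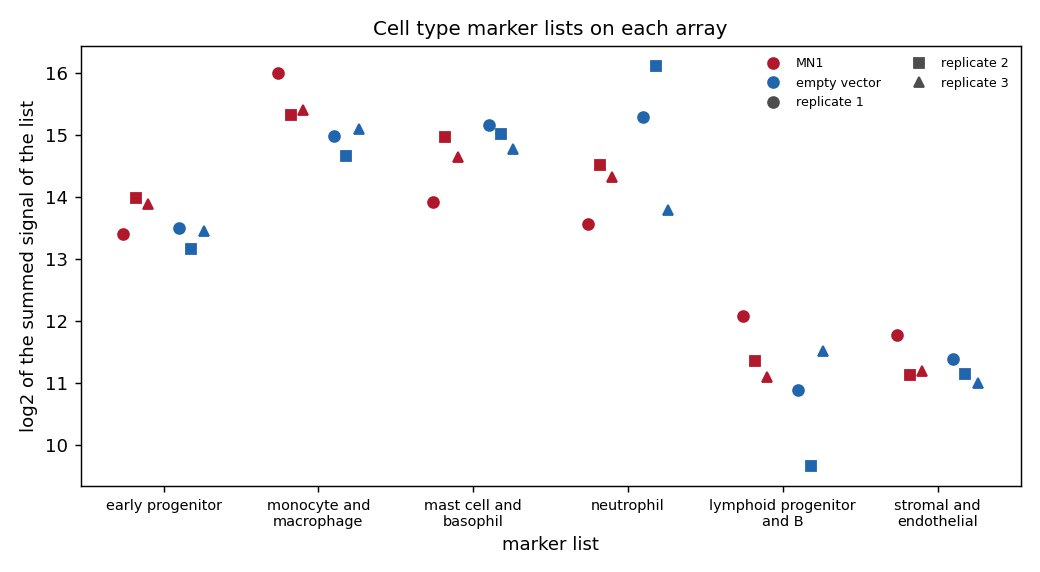
Log2 of the summed signal of 6 cell type marker lists on each array, MN1 in red on the left and empty vector in blue on the right of each list; symbols give the replicate. Monocyte and macrophage markers do not overlap between the groups, and MN1 replicate 1 is the highest array there and the lowest MN1 array for early progenitor, mast cell and neutrophil markers.

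Genes around the receptors were read by role, in 6 lists, and 0 genes in any list passed the test across all genes. Of the 4 genes for PDGF ligands, Pdgfc measured 9.41, 6.67 and 7.30 in MN1 cells, and 6.18, 5.65 and 7.20 in empty vector cells. MN1 replicate 1 alone was far above the rest, the groups overlapped, and the difference was 1.45 ± 0.75 (SE, log2, adjusted p = 0.597, limma). Pdgfb differed by 0.42 ± 0.69 and Pdgfd, which was dim, by -0.05 ± 0.11. The list's median was 0.20, and from -0.10 without MN1 replicate 1 to 0.79 without MN1 replicate 3 when an array was left out. Of 23 other receptor tyrosine kinase genes, 12 had a higher and 11 a lower mean, with a median of 0.03, or -0.09 to 0.03 with an array left out. The largest differences beside Kdr were in Mertk and Fgfr1. Mertk, a receptor for the uptake of dying cells by macrophages, measured 9.80, 8.08 and 8.22 in MN1 cells, and 7.19, 6.74 and 7.39 in empty vector cells, a difference of 1.59 ± 0.47 (adjusted p = 0.584). Fgfr1, a fibroblast growth factor receptor, measured 8.07, 7.74 and 7.94 in MN1 cells, and 9.69, 8.48 and 9.29 in empty vector cells. Its groups did not overlap either, in the other direction, with a difference of -1.24 ± 0.30 (adjusted p = 0.584).

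Signalling genes downstream of the receptors came next. Of 38 signal transducers measured out of 46 listed, 25 had a higher and 13 a lower mean, and the median log2 difference was 0.17, beside -0.03 over all genes. Sos1, the exchange factor that loads Ras, measured 8.91, 8.64 and 9.12 in MN1 cells, and 8.27, 7.78 and 7.96 in empty vector cells. Its groups did not overlap, and the difference was 0.89 ± 0.18 (SE, adjusted p = 0.584, limma). The kinase gene Src and the adaptor gene Gab1 differed by 0.89 ± 0.68 and 0.87 ± 0.45, with overlapping groups. The list's median was 0.05 without MN1 replicate 1, 0.07 without MN1 replicate 3 and 0.06 without empty vector replicate 3. Of 28 negative regulators, 14 had a higher and 14 a lower mean, with a median of 0.02, -0.09 without empty vector replicate 2 and 0.12 without empty vector replicate 1. The Ras inactivator gene Nf1 differed by 0.63 ± 0.20 and the lipid phosphatase gene Inppl1 by 0.55 ± 0.14, both with MN1 above in every array, and the cytokine feedback gene Socs1 by -0.50 ± 0.23 with overlap.

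**Figure D5:**
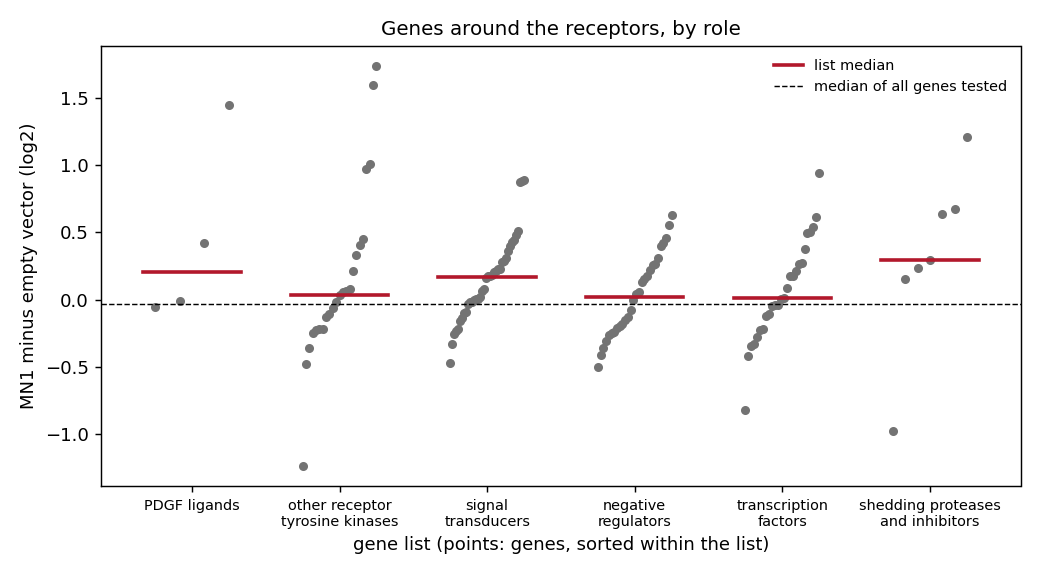
Log2 difference (MN1 minus empty vector) of each gene in 6 lists around the receptors, sorted within the list; red lines are list medians and the dashed line is the median of all 19938 genes, -0.03. The medians run from 0.01 to 0.30, and no gene shown passed the test across all genes.

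Of 26 blood cell transcription factors, among them known regulators of the receptor genes, 14 had a higher and 12 a lower mean, with a median of 0.01, or -0.04 to 0.11 with an array left out. The largest differences were in Meis1, Ets1 and Mecom. Meis1, a homeobox gene whose product is known to act on Flt3, measured 9.80, 10.35 and 9.95 in MN1 cells, and 9.41, 8.33 and 9.55 in empty vector cells, a difference of 0.94 ± 0.34 (SE, log2, adjusted p = 0.584, limma) without overlap. Ets1 measured 7.31, 7.73 and 7.62 in MN1 cells, and 8.27, 8.56 and 8.28 in empty vector cells. Every MN1 array lay below every empty vector array, with a difference of -0.82 ± 0.15 (adjusted p = 0.584). Mecom differed by 0.62 ± 0.29 with overlap. Among 7 genes for shedding and matrix proteases and their inhibitors, 6 had a higher mean and 1 a lower, with a median of 0.30, which became 0.46 when MN1 replicate 2 was left out and 0.16 when empty vector replicate 2 was. The lower was Mmp9, which releases soluble KIT ligand in marrow, with 8.52, 9.21 and 9.25 in MN1 cells, and 9.74, 10.58 and 9.58 in empty vector cells. Its difference was -0.97 ± 0.32 (adjusted p = 0.584) without overlap, and Mmp9 is also a granule protein of neutrophils, whose summed marker signal is given above. The inhibitor gene Timp3 differed by 1.21 ± 0.85 and Mmp14 by 0.68 ± 0.45, both with overlap.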

How the data were processed

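RNA from sorted mouse marrow cells, 200 ng per sample, was labelled with biotin and hybridised to one-colour Affymetrix whole-transcript arrays, per the labels' protocols. The authors deposited log2 values per probe set from RMA, per the submitters' processing notes; that they are log2 follows from their range. RMA compresses dim values and so understates differences between them, and detection was not called. All 6 value columns were used. Of 35557 probe sets, 21789 carried 1 gene symbol in the platform annotation; the probe set with the highest mean was kept per gene, which left 19938 genes, and each receptor and ligand gene had 1.

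Groups and replicate numbers came from the sample titles. Differences were tested with limma 3.58.1 in R 4.3.3 (lmFit and eBayes, 4 residual and 2.43 prior degrees of freedom, two-sided, Benjamini-Hochberg over all genes, threshold 0.05). The fit was also run on simulated data with independent noise and planted differences larger than that of Flt3. Smaller differences and noise shared between genes were not simulated. With 3 arrays in a group, precision is low. The titles' numbers were not taken as pairs in the main fit, although Eif2s3y ranked alike by replicate number in both groups. A fit with a replicate block was run as an alternative. The genes and lists were chosen with earlier results of these data known. Some genes of the lists are not reported here. Named genes are Mn1, the receptors and ligands, the 3 largest differences per list, the 5 genes most like Flt3, Kit and Csf1r, and the 2 brightest genes of a marker list. The 3 monocyte and macrophage markers with a lower mean are named too, and so is Flt1, for its place near Flt3. Alternatives were the replicate block, median-centred or quantile-normalized arrays, removal of the dimmest 40% of genes, averaged probe sets per gene, every probe set tested, a robust prior with an intensity trend, weighted arrays, leaving out each array, and a threshold of 0.1.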

Additional observations from a re-analysis of the deposited data

How the results depend on the processing

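Under the 15 alternatives, 0 genes and 0 of the 9 receptor and ligand genes were called. Flt3 kept its direction in all fits, with log2 differences from 1.57 to 2.31 when an array was left out and from 1.78 to 1.97 otherwise, and adjusted p values from 0.0989 to 0.935 (limma). Csf1r ran from 0.22 to 0.31 and from 0.24 to 0.29. Its unadjusted p (limma) was under 0.05 in only some of the fits. It was 0.0801 without the dimmest 40% of genes and 0.0696 with the intensity trend and robust prior. With an array left out, it was under 0.05 only without empty vector replicate 1. In the other fits on all 6 arrays, apart from the replicate block given next, it was under 0.05. With the replicate block, the Flt3 difference was 1.83 ± 0.31 (SE) with an adjusted p of 0.50, and Csf1r had an unadjusted p of 0.0559. The block lowered the SE of Pdgfrb from 0.247 to 0.124 and that of Csf1 from 0.498 to 0.290. For Kit, Csf1r and Flt3l the SE rose, for Kit from 0.228 to 0.249. Deviations of same-numbered arrays correlated at 0.13, 0.075 and 0.324, and 3 of 6 arrays correlated best with their own number. Each array had only 3 arrays of the other group to match, so this count cannot show whether the numbers mark pairs. The sign turned for 4 genes: Kit was 0.0087 with array weights and -0.186 to 0.208 with an array left out, Flt3l was -0.0256 after quantile normalization and -0.0501 to 0.266 with an array left out, and Pdgfrb (-0.343 to 0.0768) and Csf1 (-0.777 to 0.0575) turned only when an array was left out. The cause was not tested. Without the dimmest 40% of genes, Pdgfra, Kitl and Il34 were not tested. Of 84 list medians recomputed, 4 moved by more than the spread between arrays, all with an array left out: other receptor kinases to -0.09 without empty vector replicate 1, and signal transducers as given above. Signal near that of unexpressed genes limits what Kitl and Pdgfra can show.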
